A study of Mus musculus with 15 samples.

Results

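Pgr and 9 of its neighbours on mouse chromosome 9 were followed through 15 libraries of nuclear RNA from ventricular muscle. The 10 genes are Pgr, Gm32014, Gm16485, Gm19324, Cep126, Pdgfd, Trpc6, Yap1, Arhgap42 and Cntn5, taken by symbol from a table of 55536 genes. All 10 lie within 3 Mb of Pgr, where 66 genes are annotated in all, and all 10 were among the 17455 genes with enough reads to be tested. They were chosen with the difference between the genotype labels already known, so their values under the 2 labels are given as a description, without a test. Tests are given only for females against males, for the sex difference of the label effect, and for neighbours outside the 10.

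The libraries come from nuclei sorted for Pcm1, a protein of centriolar satellites that marks cardiomyocyte nuclei, and the series asks about sex-specific control of heart maturation by the progesterone receptor. The labels give 4 female and 4 male libraries of the genotype Pgr_KO, and 3 female and 4 male libraries of the genotype Pgr_WT. The allele, the deleted exons, the background strain and any agent are not given in the sources used here, and the tissue label carries a range of numbers without a unit, so the age is not stated. No label says that the libraries of a group are separate animals, so p-values measure only the spread between these samples, which may be technical.

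Pgr encodes the progesterone receptor, a nuclear receptor that binds DNA as a dimer once progesterone is bound and is best known from the uterus, ovary and mammary gland. Around it lie genes of unrelated roles. Yap1 encodes the transcriptional coactivator that the Hippo kinases hold out of the nucleus and that drives growth of heart muscle cells through TEAD factors. Trpc6 encodes a cation channel opened by diacylglycerol, Pdgfd a ligand of the beta receptor for platelet-derived growth factors, Arhgap42 a GTPase-activating protein for RhoA known from smooth muscle, Cep126 a protein of centrosomes and cilia, and Cntn5 a neuronal adhesion protein of the immunoglobulin family. Gm32014, Gm16485 and Gm19324 are predicted genes, to which no role is given here.

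On GRCm38, Pgr runs from 8899833 to 8968611 on the plus strand, and exons make up 12.4% of its body of 68.8 kb. Gm32014, a long intergenic non-coding RNA gene (8644073 to 8740988, minus strand), starts 159 kb before Pgr and is read away from it. Its far end overlaps the end of Trpc6 (8544142 to 8680741, plus strand) by 36.7 kb. Gm16485 (8971791 to 8975773, plus strand) begins 3.18 kb after the end of Pgr and is annotated as protein-coding with a single transcript and no intron. It is followed after 18.6 kb by the end of Arhgap42 (8994329 to 9239101, minus strand) and, 692 kb from Pgr, by Cntn5 (9660891 to 10904775, minus strand). On the other side, Gm19324 (8142541 to 8185129, plus strand), an unprocessed pseudogene, lies 715 kb from Pgr. Its start is 8.25 kb from that of Cep126 (8076461 to 8134294, minus strand), and the pair are read away from each other. Yap1 (7931999 to 8004596, minus strand) lies 895 kb before Pgr and Pdgfd (6168584 to 6378850, plus strand) 2521 kb before it. Counts cover whole gene bodies, introns included.

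Promoter sequences, from 250 bases before to 50 bases after the start site, were found for 8 of the 10 genes in RefSeq tables of GRCm38.p6. Those of Pgr and Gm32014, which were higher under the KO label, and of Cep126 and Pdgfd, which were lower, are shown because of the 8 they are the ones whose labels did not overlap in at least the male libraries. The 2 genes without a sequence here are Gm16485 and Gm19324. Each reads 5′ to 3′ on the strand of its gene, and capitals mark matches to a motif searched on both strands.
Pgr, chr9:8899583-8899882, plus strand: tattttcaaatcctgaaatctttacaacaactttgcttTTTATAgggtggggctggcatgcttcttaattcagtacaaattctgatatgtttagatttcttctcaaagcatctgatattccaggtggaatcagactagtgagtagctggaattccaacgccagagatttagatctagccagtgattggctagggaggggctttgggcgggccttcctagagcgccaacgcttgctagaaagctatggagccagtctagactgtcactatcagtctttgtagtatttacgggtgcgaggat
Gm32014, chr9:8740939-8741238, minus strand: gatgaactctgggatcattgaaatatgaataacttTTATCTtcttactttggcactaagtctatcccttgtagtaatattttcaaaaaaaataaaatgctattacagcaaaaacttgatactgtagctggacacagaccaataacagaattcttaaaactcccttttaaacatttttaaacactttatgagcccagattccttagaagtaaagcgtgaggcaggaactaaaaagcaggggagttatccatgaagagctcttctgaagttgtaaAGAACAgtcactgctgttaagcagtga
Cep126, chr9:8134397-8134696, minus strand: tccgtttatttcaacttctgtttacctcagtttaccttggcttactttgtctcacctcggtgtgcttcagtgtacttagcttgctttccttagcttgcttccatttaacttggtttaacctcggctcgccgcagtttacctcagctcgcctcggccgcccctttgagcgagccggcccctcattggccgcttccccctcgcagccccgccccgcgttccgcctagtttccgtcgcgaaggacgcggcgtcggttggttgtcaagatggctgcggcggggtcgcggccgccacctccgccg
Pdgfd, chr9:6168236-6168535, plus strand: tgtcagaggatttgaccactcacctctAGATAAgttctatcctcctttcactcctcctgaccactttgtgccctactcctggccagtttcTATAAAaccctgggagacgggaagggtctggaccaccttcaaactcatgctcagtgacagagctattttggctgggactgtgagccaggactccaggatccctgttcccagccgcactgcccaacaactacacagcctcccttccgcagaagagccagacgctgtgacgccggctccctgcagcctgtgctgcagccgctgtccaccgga

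The capitals in Pgr are a TATAAA on the opposite strand, 212 bases before the start. In Gm32014 they are an AGATAA, the letters bound by GATA factors, on the opposite strand 215 bases before the start, and an AGAACA, a half-site of the steroid receptor group to which the progesterone receptor belongs, 23 bases after it. Pdgfd holds an AGATAA 223 bases and a TATAAA 160 bases before its start, and Cep126 holds no match. The full palindromic hormone response element of the steroid receptor group was in 0 of the 8 windows and in 0.47% of 32851 RefSeq promoters of the same length. AGAACA was in 1 of the 8 and in 18.97% of all, AGATAA in 2 and in 11.18%, TATAAA in 2 and in 13.62%, and CATTCC, the letters bound by TEAD factors, in 1 (Yap1) and in 14.66%. The motifs searched do not overlap in these windows. A match is letters in a window and not a measured site. The start sites used for Cep126 and Pdgfd lie 152 and 98 bases upstream of the starts in the count table.

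Total counts were 42.3 to 55.4 M in the female libraries labelled KO and 24.4 to 51.4 M in those labelled WT, and 25.04 to 139.4 M in the male libraries labelled KO and 43.4 to 91.7 M in those labelled WT. Levels are CPM, that is reads scaled to library sizes with the TMM factors of edgeR, and 3 reads in a library equal 0.0219 to 0.117 CPM. Summed cardiomyocyte markers stood at 42096 to 72712 CPM in all 15 libraries, a sum led by the genes Ttn and Ryr2. The lowest of the 8 markers, Nppa, was at 25.8 CPM or more in every library, so all of them were present throughout. Summed markers of other cells (8 fibroblast, 8 endothelial and 8 mural cell genes) split the libraries at the largest gap into 6 with high and 9 with low levels. The 6 are replicates 1 and 2 of both KO groups and replicate 1 of both WT groups. In them fibroblast markers summed to 724 to 1938 CPM against 58.3 to 252 CPM in the 9 others, and endothelial markers to 216 to 395 CPM against 16.4 to 55.6 CPM. All 8 fibroblast and all 8 endothelial markers had ranges that did not overlap between the 6 and the 9. The split was made from these same markers and the mural cell ones, so this describes the split and tests nothing. Mural cell sums, led by Abcc9, a gene also used by cardiomyocytes, overlapped at 548 to 659 CPM and 581 to 776 CPM. Taken singly, 5 of the 8 mural cell markers were higher in the 6 without overlap. Abcc9 went the other way, also without overlap, at 365 to 416 CPM in the 6 and 449 to 590 CPM in the 9. Leukocyte markers summed to 54.3 to 143 CPM and 10.3 to 47.5 CPM, with 1 of 8 at 0 in every library. Replicate 2 of the female libraries labelled KO and of both WT groups held sex-linked transcripts of the other sex above 1% of the other sex's level. In such bulk nuclei, fewer cells of a type and less RNA per cell cannot be told apart.

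Pgr ran against the genotype labels in every library, with reads present under the KO label and at or near 0 under the WT label. The allele is not given and reads of introns are counted, and the reason was not tested. The female libraries labelled KO held 8.69, 11.9, 12.5 and 10.6 CPM of Pgr, against 0.117, 0.267 and 0 CPM in the female libraries labelled WT. The male libraries labelled KO held 6.32, 6.10, 6.75 and 7.15 CPM, against 0.0901, 0.166, 0 and 0 CPM in the male libraries labelled WT. The groups did not overlap in either sex, and the lowest library labelled KO lay far above the highest labelled WT. Group means were 10.9 ± 1.67 CPM in female libraries labelled KO (SD, n = 4) and 0.128 ± 0.134 CPM in those labelled WT (n = 3), and 6.58 ± 0.465 CPM in male libraries labelled KO (n = 4) and 0.0640 ± 0.0802 CPM in those labelled WT (n = 4). As log2 fold changes of the KO over the WT label these are 6.61 ± 1.002 in females and 6.77 ± 0.88 in males (SE, edgeR). The size rests on the few reads under the WT label: without replicate 2 of the WT group it was 7.93 in females and 7.65 in males, and without 1 of the WT libraries at 0 it was 5.81 in females and 6.22 or 6.43 in males. The genotypes are for this reason named only by label, and a gene higher under the KO label is higher in the libraries with the most Pgr reads.

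The few Pgr reads under the WT label were spread unevenly. The female libraries labelled WT had 3, 7 and 0 reads, which is 1.07%, 2.45% and 0% of the mean CPM of the female libraries labelled KO. The male ones had 6, 7, 0 and 0 reads, or 1.37%, 2.52%, 0% and 0% of the male mean under the KO label. A count of 0 there allows up to 0.492% to 1.08% of that mean. In the same order, transcripts of the other sex stood at 0.254%, 3.07% and 0.0447% of the other sex's level in the female libraries and at 0.171%, 3.50%, 0.0716% and 0.0216% in the male ones. Replicate 2 was thus the library with the most Pgr and the most other-sex transcripts in both WT groups. Replicate 1, the library with high other-cell markers, had Pgr reads in both groups with little of the other sex. Their part in these reads was not tested.

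Pgr was higher in females than in males under the KO label, where the rule of choice did not use the comparison. Every female library stood above every male one, a pattern shown by 1.26% of tested genes in this direction. The difference of 4.33 CPM had a two-sided exact permutation p = 0.0286, the smallest that the 70 arrangements allow, and 0.0571 after Benjamini-Hochberg adjustment over the 2 labels tested. Exchanging females and males only within the 4 same-numbered pairs, all 4 of which had the female higher, gave an exact p = 0.125, the smallest that 16 arrangements allow, so that this form of the test cannot reach the threshold. The edgeR fit gave a log2 fold change of 0.73 ± 0.64 (SE) with an adjusted p = 0.828 over all tested genes, where 0.0229% of genes were called. With the replicate number as a block it was 0.71 ± 0.48 (edgeR adjusted p = 0.539). The female and male libraries labelled KO thus did not overlap in Pgr, and the difference fails both corrections. Among the libraries with low other-cell markers alone, Pgr stood at 12.5 and 10.6 CPM in the female and at 6.75 and 7.15 CPM in the male libraries. Under the WT label, females and males had 10 and 13 reads in all, the difference was 0.0638 CPM, and the exact permutation p was 0.457.

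Gm32014 and Gm16485, the genes that flank Pgr, were low but followed it. Gm32014 had 9, 9, 6 and 26 reads in the female libraries labelled KO against 0, 0 and 1 in those labelled WT, and 7, 29, 28 and 83 reads in the male libraries labelled KO against 1, 1, 1 and 2 in those labelled WT. In CPM these are 0.182, 0.147, 0.154 and 0.551 against 0, 0 and 0.0188 in females, and 0.262, 0.378, 0.440 and 0.605 against 0.0150, 0.0237, 0.0236 and 0.0216 in males. No library labelled KO overlapped one labelled WT, and the libraries labelled WT were at single reads. Pooled reads gave a ratio of 26.7 in females (95% interval 4.58 to 1075, 50 against 1 read) and of 23.6 in males (9.87 to 73.6, 147 against 5 reads), with intervals that cover counting error only. The fitted log2 fold changes were 4.53 ± 0.83 in females and 4.24 ± 0.60 in males. The female value rests on 1 read in the WT group and was 6.89 without replicate 3, the library that held it, and 3.85 without replicate 4 of the KO group.

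Gm16485 had 10, 31, 5 and 13 reads in the female libraries labelled KO against 1, 0 and 1 in those labelled WT, and 5, 10, 13 and 36 reads in the male libraries labelled KO against 0 in all 4 labelled WT. In CPM the KO label gave 0.202, 0.507, 0.128 and 0.275 in females and 0.187, 0.130, 0.205 and 0.262 in males. The groups again did not overlap in either sex. The pooled ratio was 15.8 in females (95% interval 4.17 to 133), and in males the level was at least 17.1-fold higher, against a floor of 3 reads over the WT group. The fitted log2 fold change was 3.74 ± 0.80 in females. The male one of 6.50 ± 0.90 depends on the prior count, since its WT group is at 0.

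**Figure D1:**
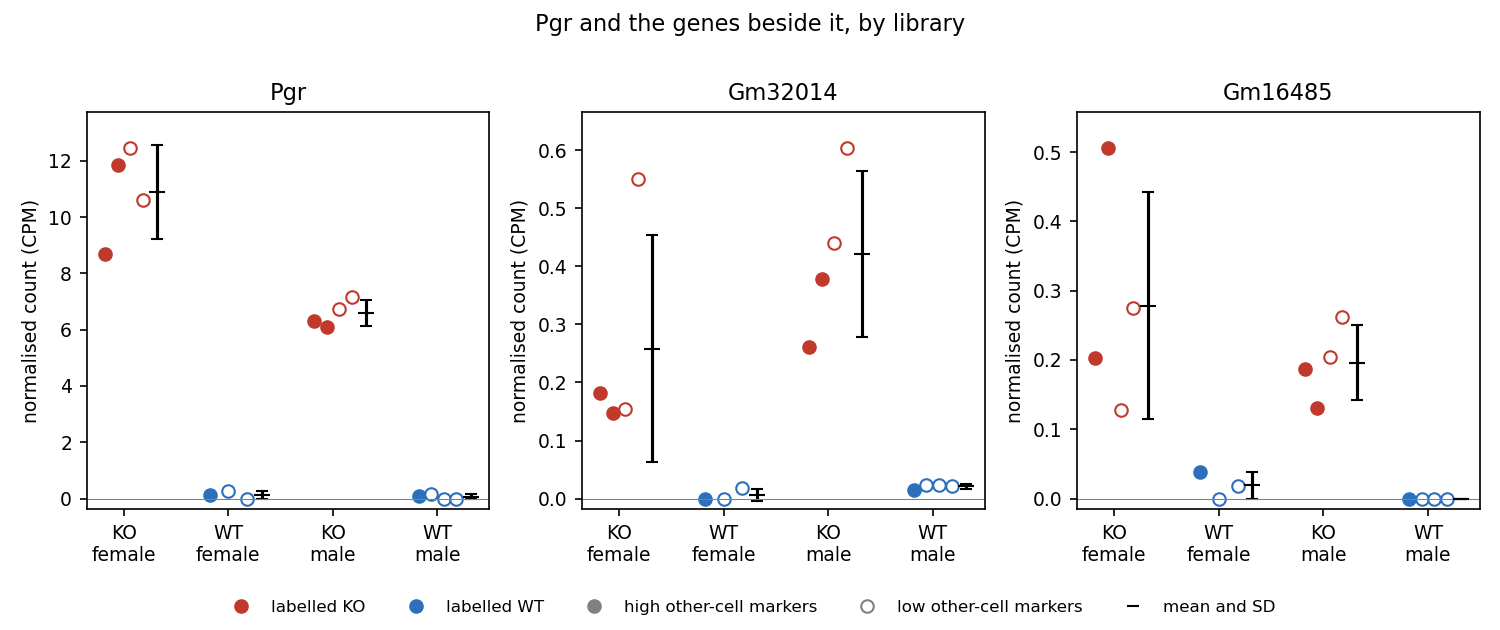
Normalised counts (CPM) of Pgr, Gm32014 and Gm16485 in each library by label group, filled where other-cell markers were high and open where they were low, with the mean and SD at the side. Pgr lies between 6.10 and 12.5 CPM in all 8 libraries labelled KO and at or below 0.267 CPM in all 7 labelled WT, and both neighbours follow at levels below 0.61 CPM.

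The 3 genes differed in how they kept step with each other under the KO label. Gm16485 had 1.03 to 4.27 reads for each 100 Pgr reads in female libraries (2.56 ± 1.33, SD, n = 4) and 2.14 to 3.67 in male ones (2.95 ± 0.63, n = 4). Per kb of gene body its density was 0.177 to 0.737 of that of Pgr in females and 0.369 to 0.634 in males. Gm32014 had 1.23 to 5.20 reads for each 100 Pgr reads in females (2.44 ± 1.88) and 4.14 to 8.46 in males (6.33 ± 1.77), and its density per kb was at most 0.0600 of that of Pgr. Against Pgr, Gm32014 thus averaged more reads in males, yet replicate 4 of the females, at 5.20, fell inside the male range. In edgeR, female over male under the KO label was -0.73 ± 0.47 on the log2 scale for Gm32014 (adjusted p = 0.760) and 0.50 ± 0.51 for Gm16485 (adjusted p = 0.858).

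Gm19324, Cep126 and Pdgfd went the other way. Gm19324 had 1.17, 0.376, 0.973 and 1.40 CPM in the female libraries labelled KO against 3.57, 4.27 and 3.05 CPM in those labelled WT, and 0.934, 3.09, 1.62 and 2.67 CPM in the male libraries labelled KO against 4.37, 4.86, 5.56 and 4.09 CPM in those labelled WT. No library labelled KO reached the lowest labelled WT in either sex. The log2 fold change was -1.89 ± 0.41 in females and -1.17 ± 0.38 in males. As a pseudogene, Gm19324 may share reads with a near-identical parent copy, which the counting could split or drop. Its annotated exons make up only 2.74% of the gene body that was counted, and such sharing was not tested.

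Cep126 had 9.24, 13.6, 17.7 and 15.7 CPM in the female libraries labelled KO against 17.3, 30.03 and 21.6 CPM in those labelled WT. The female groups overlapped by 1 library on each side. In males it had 11.8, 16.8, 16.1 and 15.98 CPM under the KO label against 22.3, 29.0, 30.3 and 25.9 CPM under the WT label, without overlap. The log2 fold change was -0.71 ± 0.22 in females and -0.82 ± 0.21 in males. In the 9 libraries with low other-cell markers, female values were 15.7 and 17.7 CPM under the KO label. Under the WT label they were 21.6 and 30.03 CPM. These are 2 libraries against 2, and the share of all tested genes that separate among them was not counted.

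Pdgfd, the farthest of the 10 genes from Pgr, had 56.7, 89.5, 45.1 and 30.7 CPM in the female libraries labelled KO against 74.8, 93.6 and 121 CPM in those labelled WT. In males it had 48.3, 70.0, 41.2 and 41.0 CPM under the KO label against 110, 114, 114 and 149 CPM under the WT label. The male groups did not overlap, and in females replicate 2 of the KO group, which has the highest other-cell markers of all libraries, lay inside the WT range. The log2 fold change was -0.80 ± 0.30 in females and -1.28 ± 0.28 in males. In the libraries with low other-cell markers alone the values were 45.1 and 30.7 CPM under the KO label against 93.6 and 121 CPM under the WT label in females, and 41.2 and 41.0 CPM against 114, 114 and 149 CPM in males, and the log2 fold changes were -1.51 ± 0.23 and -1.62 ± 0.21.

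**Figure D2:**
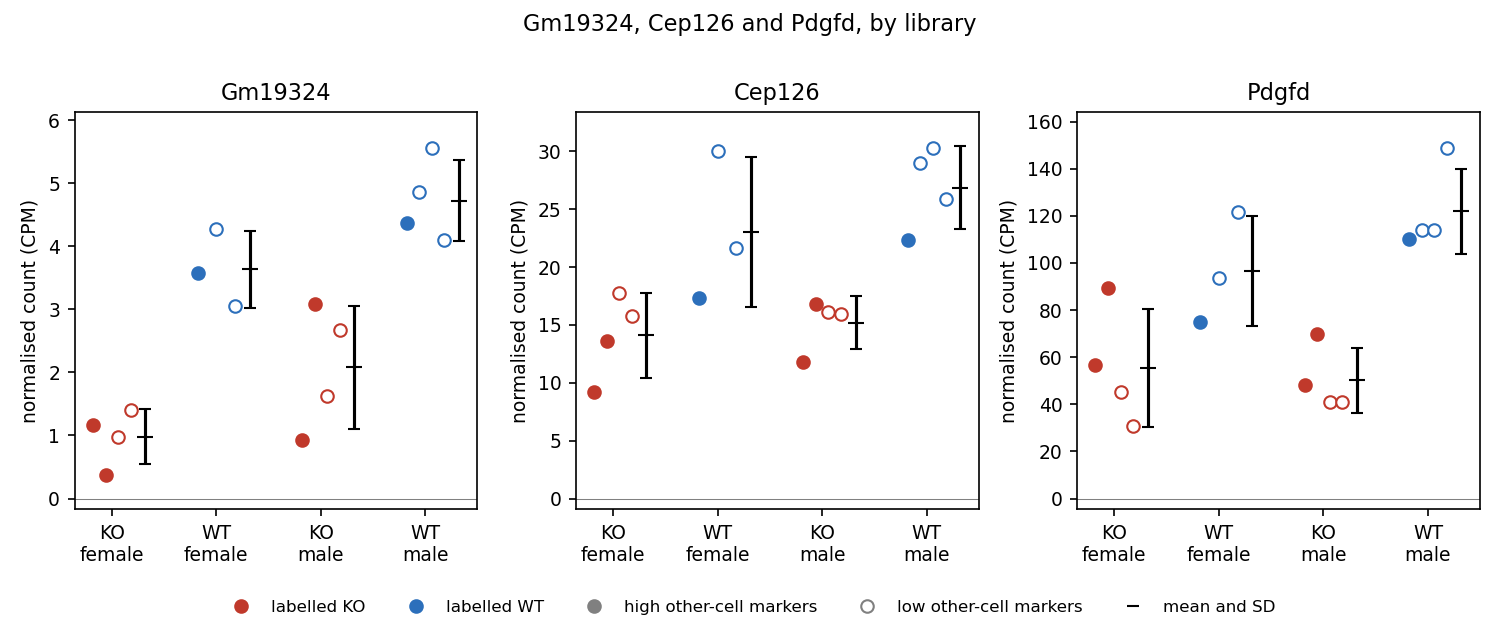
Normalised counts (CPM) of Gm19324, Cep126 and Pdgfd in each library by label group, filled where other-cell markers were high and open where they were low, with the mean and SD at the side. Libraries labelled KO lie below those labelled WT for Gm19324 in both sexes and for Cep126 and Pdgfd in males. Among open symbols they do so for all 3 genes in both sexes. Each group has only 2 or 3 open symbols, and the share of all tested genes that separate among them was not counted.

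Set against all tested genes, a lack of overlap in both sexes was rare. In females 3 of the 10 genes had every library labelled KO above every library labelled WT, where 0.905% of all tested genes did, and 1 lay below, where 1.01% did. In males 3 lay above (0.756%) and 3 below (0.842%). In both sexes at once 4 of 17455 genes lay above (0.0229%) and 4 below (0.0229%). The 4 above were Pgr, Gm32014, Gm16485 and 5830454E08Rik, which is on chromosome 9 at 112 Mb from Pgr. The 4 below were Gm19324, Samd5, Gm25262 and Gm43935, and the last 3 are on other chromosomes. Since the 10 genes were chosen on this contrast, their share says nothing further about them.

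Trpc6, Yap1, Arhgap42 and Cntn5 overlapped between the labels in both sexes. Trpc6 had 0.526, 1.54, 0.128 and 0.297 CPM in the female libraries labelled KO against 0.699, 0.153 and 0.263 CPM in those labelled WT, and 0.449, 0.887, 0.205 and 0.168 CPM in the male libraries labelled KO against 0.376, 0.261, 0.307 and 0.248 CPM in those labelled WT. The 6 libraries with high other-cell markers held 0.376 to 1.54 CPM and the 9 with low ones 0.128 to 0.307 CPM, without overlap and under both labels. How many of all tested genes separate in this way was not counted, and Trpc6 had only 4 to 94 reads in a library. The log2 fold change was 0.78 ± 0.79 in females and 0.51 ± 0.71 in males. It was -0.20 in females without replicate 2 of the KO group, and -0.01 in females and -0.55 in males in the libraries with low markers alone. Gm32014, which overlaps Trpc6 on the opposite strand, showed no such split. Under the KO label it had 0.147 to 0.378 CPM in the libraries with high markers and 0.154 to 0.605 CPM in those with low ones.

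Yap1 was the most abundant of the 10 genes and had the smallest ratio of its highest to its lowest library. It had 259 ± 39.4 CPM in female libraries labelled KO (SD, n = 4) and 275 ± 7.82 CPM in those labelled WT (n = 3), and 264 ± 26.3 CPM in male libraries labelled KO and 262 ± 30.9 CPM in those labelled WT (n = 4 each). Over all 15 libraries it ran from 208 to 307 CPM. The log2 fold change was -0.09 ± 0.13 in females and 0.01 ± 0.12 in males. Arhgap42, the nearest of the 10 after Gm16485 at 25.7 kb from Pgr, had 162 ± 11.5 CPM in female libraries labelled KO and 168 ± 31.8 CPM in those labelled WT, and 166 ± 14.5 CPM in male libraries labelled KO and 190 ± 40.3 CPM in those labelled WT. Its log2 fold changes were -0.05 ± 0.16 and -0.19 ± 0.15. Cntn5 had 33.5 ± 14.5 CPM in female libraries labelled KO and 35.2 ± 9.64 CPM in those labelled WT, and 23.7 ± 2.74 CPM in male libraries labelled KO and 27.5 ± 6.12 CPM in those labelled WT, with log2 fold changes of -0.07 ± 0.28 and -0.21 ± 0.26. Its 6 libraries with high other-cell markers were confined to 21.2 to 25.6 CPM, while the 9 others spread from 21.4 to 53.7 CPM.

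**Figure D3:**
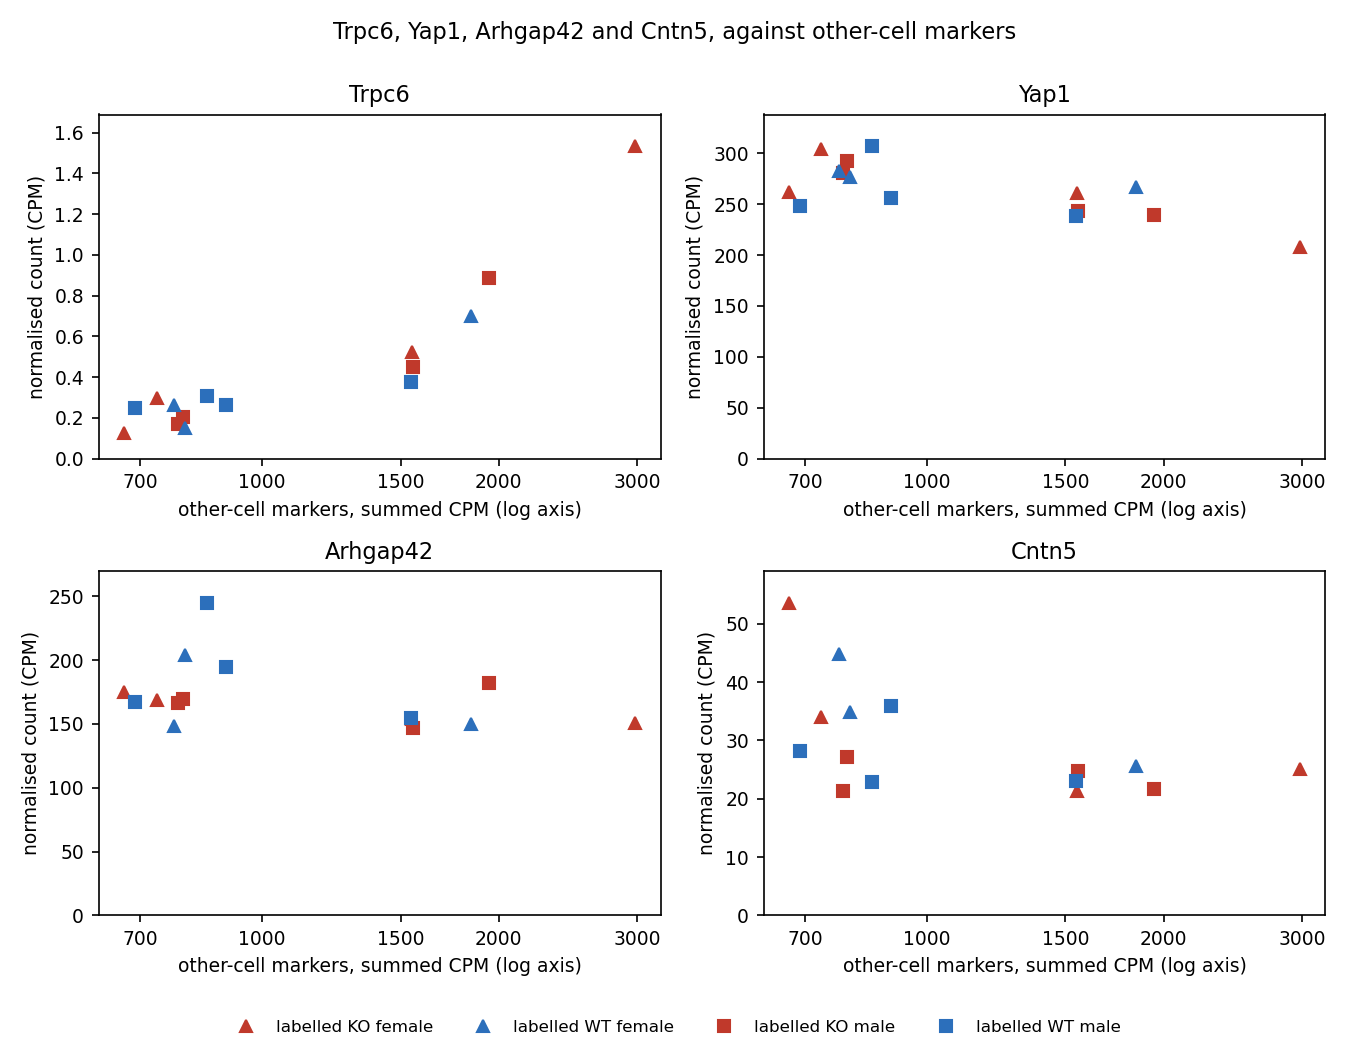
Normalised counts (CPM) of Trpc6, Yap1, Arhgap42 and Cntn5 in each library against the summed CPM of other-cell markers on a log axis, by label and sex. Trpc6 lies above 0.37 CPM in all 6 libraries with high markers and below 0.31 CPM in the 9 others. The share of all tested genes that split in this way was not counted. Yap1 stays between 208 and 307 CPM throughout.

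Per kb of gene body, the order of the mean levels differed between the labels. In all 4 groups Yap1 (3.56 to 3.79 CPM per kb) and Arhgap42 (0.662 to 0.777) led, and Pdgfd and Cep126 came next. Under the KO label Pgr was the fifth, at 0.159 ± 0.0243 CPM per kb in females and 0.0957 ± 0.00676 in males. Below it there stood Gm16485 at 0.0698 ± 0.0411 in females and 0.0492 ± 0.0136 in males, Gm19324 at 0.0230 ± 0.0103 and 0.0488 ± 0.0230, and Cntn5 at 0.0269 ± 0.0116 and 0.0191 ± 0.00220, with Trpc6 and Gm32014 at or below 0.00455. Under the WT label Gm19324 was the fifth, at 0.0853 ± 0.0145 in females and 0.111 ± 0.0151 in males, and Cntn5 followed at 0.0283 and 0.0221. Pgr stood there at 0.00186 in females and 0.000931 in males, below Trpc6 at 0.00272 and 0.00218 and above Gm32014 at 6.47e-05 and 0.000216. Pdgfd and Cep126 are neighbours in this order that did not differ beyond their spread under the KO label, with Pdgfd at 0.264 ± 0.119 in females and 0.238 ± 0.0650 in males, and Cep126 at 0.244 ± 0.0631 and 0.262 ± 0.0393.

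**Figure D4:**
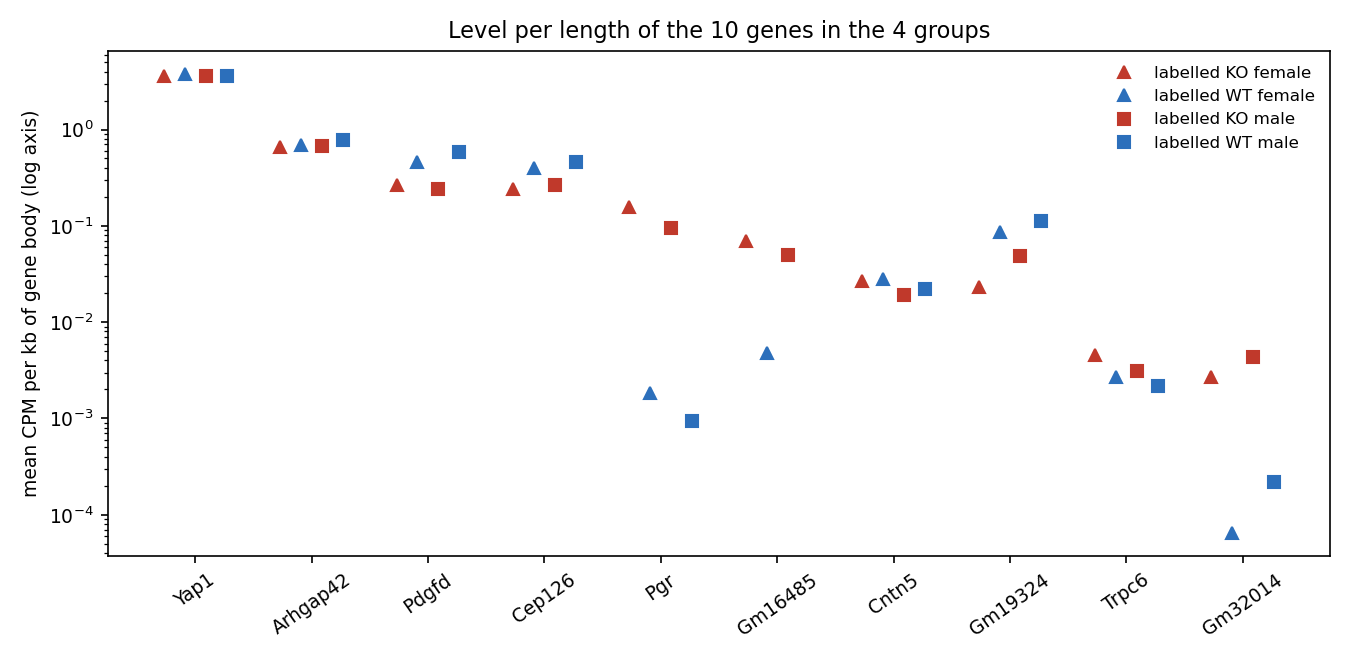
Mean level of the 10 genes in CPM per kb of gene body on a log axis, in the 4 label groups. A group at 0 (Gm16485 in male libraries labelled WT) has no symbol, and under the KO label Pgr lies between Cep126 and Gm16485 in both sexes.

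The strand of the reads was checked on genes nested in others. Gm20416, inside Yap1 on the other strand, had 44 reads in all, where a stretch of its length at the mean density of Yap1 would hold 34442. Ddi1, inside Pdgfd on the other strand, had 3 where the density of Pdgfd would give 2301. Reads of these abundant genes were thus kept apart from the opposite strand. Pgr and Gm16485 lie on the same strand, 3.18 kb apart, and whether reads of Gm16485 belong to transcripts that run past the end of Pgr was not tested.

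By distance, the higher genes lay within 159 kb of Pgr on both sides and on both strands, and the next of the 10 on either side, Arhgap42 at 25.7 kb and Trpc6 at 219 kb, overlapped between the labels. The lower genes lay at 715, 766 and 2521 kb, all before Pgr and on both strands. Most of the 22 tested genes within 3 Mb also lie before Pgr, so that side is not particular to them. Yap1, at 895 kb, lay between them by position but overlapped between the labels. Of the 56 other genes within 3 Mb, 12 passed the filter on low counts, and 24 of the 66 had 0 reads in every library. edgeR called 0 of the 12 in either sex, where 0% of all tested genes were called in females and 0.0115% in males. At an unadjusted p under 0.05 there was 1 in females, where 1.74% of all tested genes passed, and 0 in males (1.42%). DESeq2 and limma-voom also called 0 of the 12 in each sex. Of the 12, 9 were higher and 3 lower in females, with a median log2 fold change of 0.08 against 0.03 over all tested genes, and 3 were higher and 9 lower in males, at -0.05 against 0.02.

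The 5 of these 12 with the smallest p are given with their values. In females 1 of the 12 (8.33%) had every library labelled KO below every one labelled WT, where 1.01% of all tested genes did, and it was AV064505. AV064505 (7669429 to 7695631, minus strand) had 0.0889 ± 0.0674 CPM in female libraries labelled KO and 0.273 ± 0.0729 CPM in those labelled WT, without overlap, at a log2 fold change of -1.67 ± 0.71 (edgeR adjusted p = 1). In males it was at -0.77 ± 0.66 (adjusted p = 0.999). Gm45494, whose start is beside that of Yap1 on the other strand, was at -0.14 ± 0.26 in females and -0.41 ± 0.24 in males. Dcun1d5, a gene of cullin neddylation, was at 0.12 ± 0.25 and -0.32 ± 0.23. Dync2h1, the heavy chain of the dynein that moves cargo back along cilia, was at 0.06 ± 0.14 and -0.18 ± 0.13. Mmp27, a matrix metallopeptidase with 78 reads in all libraries together, was at 1.89 ± 1.57 and 0.35 ± 1.26. Just outside the 3 Mb, Casp12 at 3527 kb before Pgr had 0.34 ± 0.42 in females and -0.42 ± 0.38 in males, and Jrkl at 4274 kb after it had -0.11 ± 0.26 and -0.40 ± 0.24. The farthest members inside were Pdgfd before Pgr and Cntn5 after it.

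**Figure D5:**
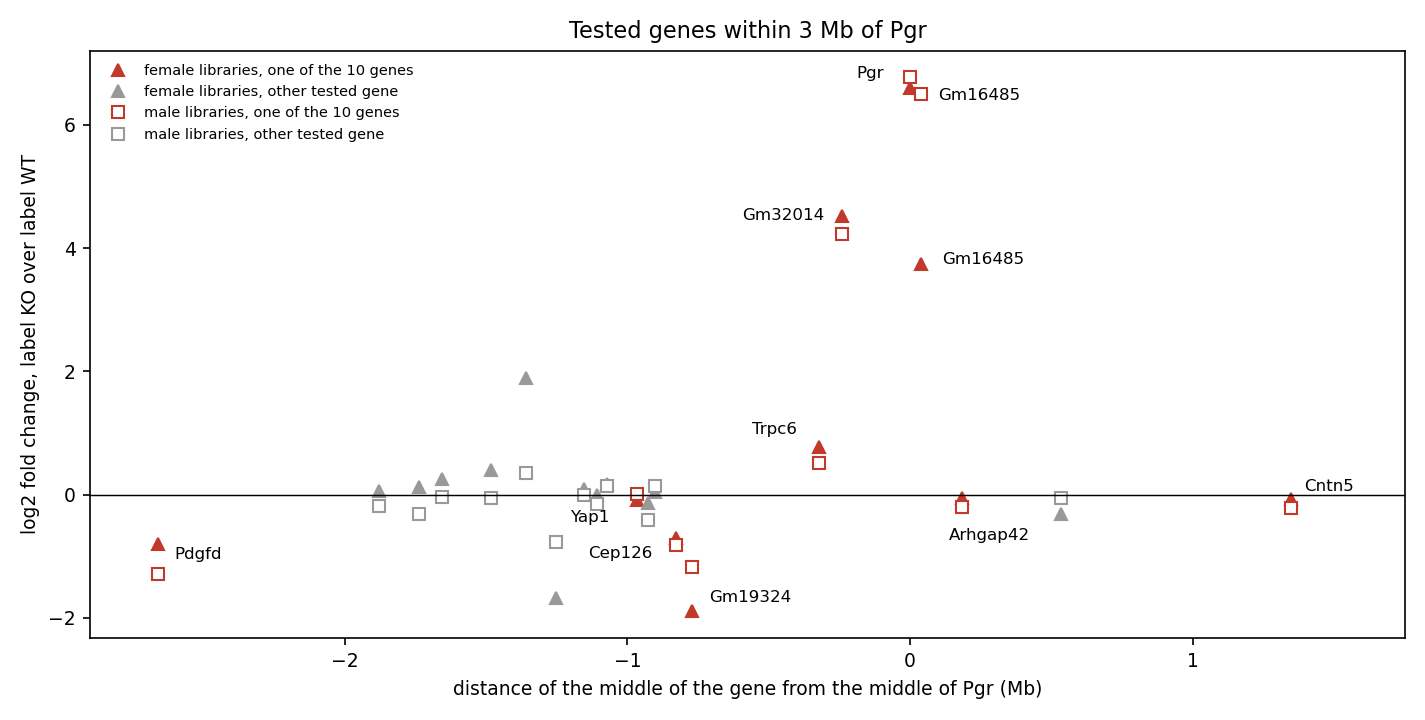
Log2 fold change of the KO over the WT label for the 22 tested genes within 3 Mb, against the distance of the middle of each gene from the middle of Pgr, for female (triangles) and male libraries (squares). Pgr, Gm32014 and Gm16485 stand above 3.7, Gm19324, Cep126 and Pdgfd lie between -0.71 and -1.89, and the male value of Gm16485 is fitted against a group with 0 reads and depends on the prior count.

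Females and males were compared across the 10 genes within each label. edgeR called 0 of the 10 under the KO label, where 0.0229% of tested genes were called, 0 under the WT label (0%) and 0 for the sex difference of the label effect (0%). Under the KO label 0 of the 10 had every female library below every male one (1.92%), and under the WT label 0 were above (1.06%) and 0 below (1.89%). At an unadjusted p under 0.05 there was 1 of the 10 under the KO label (6.37%), 1 under the WT label (2.09%) and 0 for the difference (2.49%). The one under the WT label was Gm16485, with 2 reads in females and 0 in males. There Pgr had 10 and 13 reads and Gm32014 had 1 and 5. Pgr, Gm32014 and Gm16485 passed the low-count filter through their reads under the KO label. With so few reads under the WT label, the tests there and of the sex difference cannot decide for them. Over all genes 1112, 364 and 435 passed that threshold, and DESeq2 called 57, 14 and 1 over all genes but, like limma-voom, 0 of the 10. With the replicate number as a block edgeR called 13 genes under the KO label and 1 under the WT label, again 0 of the 10. Gm19324 had the smallest p of the 10 under the KO label, at 0.980 ± 0.439 CPM in females and 2.08 ± 0.982 CPM in males, a log2 fold change of -1.10 ± 0.38 (edgeR adjusted p = 0.757). Under the WT label it was at 3.63 ± 0.616 CPM in females and 4.72 ± 0.645 CPM in males (-0.38 ± 0.41, adjusted p = 1). Cntn5 was at 0.50 ± 0.26 under the KO label (adjusted p = 0.757) and 0.35 ± 0.28 under the WT label (adjusted p = 1). Under the KO label 1 library moved it most, to 0.17 without replicate 3 of the females, and the libraries with low other-cell markers alone gave 0.86 ± 0.26 (edgeR adjusted p = 0.400). For the sex difference of the label effect, Gm19324 gave -0.72 ± 0.55, Pdgfd 0.48 ± 0.41, Pgr -0.17 ± 1.12, Cep126 0.12 ± 0.31 and Yap1 -0.10 ± 0.18, each with an adjusted p = 1 in edgeR.

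Across the 15 libraries, the log2 CPM of Gm16485 (Pearson r = 0.92) and Gm32014 (r = 0.86) were the 2 most like that of Pgr among 17454 other genes. The next, outside the 10 genes, were Slc16a9 (0.72), a monocarboxylate transporter family member, Rtp4 (0.68), an interferon-induced gene, Vstm4 (0.67), Gm15886 (0.66) and Smim14 (0.65). Slc16a9 stood at 9.77 and 9.89 CPM in female and male libraries labelled KO and at 8.28 and 8.40 CPM in those labelled WT. At the other end Pdgfd had the lowest r of all, -0.84, with Gm19324 at -0.79 and Cep126 at -0.77. These points share the label groups and libraries, so the values describe how each gene follows the label split and carry no p. The 10 genes were chosen with that split known, so the ranks of those among them say nothing further about them.

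Partners of the neighbours were followed in 5 lists, with values as log2 fold changes. limma-voom called 0 genes of these lists in any comparison. At an unadjusted p under 0.05 in edgeR there were, beside Pdgfd under the label contrasts, 2 of 4 contactins (Cntn3 and Cntn4) and 1 of 7 Yap1 targets (Ankrd1) for females over males under the KO label, where 6.37% of all tested genes passed. Under the WT label there was 1 of the Yap1 targets (Crim1), where 2.09% passed, for the sex difference of the label effect 1 of 5 channels (Trpc4), where 2.49% passed, and of the Hippo genes 0 in any comparison. Of the platelet-derived growth factors and receptors, 6 of 6 were tested and edgeR called 0 in each of the 5 comparisons, and DESeq2 called Pdgfd itself in males, where it called 0.0229% of all genes with a value, a contrast used in choosing it. Pdgfd was the most abundant of them in these nuclei, and 4 of the 6 were higher and 2 lower under the KO label in each sex, with medians of 0.25 and 0.10 against 0.03 and 0.02 over all tested genes. The receptor genes Pdgfrb and Pdgfra are also among the markers of other cells. Of the canonical transient receptor potential channels, 5 of 7 were tested and 0 called. The most abundant, Trpc1, was at 0.32 ± 0.17 in females over males under the KO label, and Trpc4 was at 0.91 ± 0.41 for the sex difference of the label effect (edgeR adjusted p = 1). Of the Hippo pathway 14 of 15 genes were tested and 0 called. Tead1, the most abundant TEAD factor here, was at -0.11 ± 0.13 and the kinase gene Stk3 at 0.30 ± 0.14 in females over males under the KO label (edgeR adjusted p = 0.903 and 0.757). Of 7 tested Yap1 targets edgeR called 0 in each comparison, and DESeq2 called 1, Ankrd1, for females over males under the KO label, where it called 0.327% of all genes with a value. Ankrd1, a cardiac ankyrin repeat protein that responds to stretch, had the smallest p, at -1.04 ± 0.28 in females over males under the KO label (edgeR adjusted p = 0.619), and Crim1, the most abundant, was at -0.17 ± 0.13. Of the contactins 4 of 6 were tested and 0 called, and Cntn3 was at 0.80 ± 0.25 in the same comparison (edgeR adjusted p = 0.757) beside Cntn5, the most abundant of them.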

How the data were processed

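RNA of sorted nuclei was depleted of ribosomal RNA and made into libraries with a directional kit, per the labels' protocols. Reads were aligned with STAR 2.5.3a and counted with featureCounts 1.5.0 on GRCm38 (mm10), per the submitters' processing notes. The authors deposited raw counts per gene and library without normalisation, in a table of 55536 genes and a smaller one of 16610. The stated length spans the whole gene from start to end in 100% of rows, so reads of introns are counted and nuclear precursor RNA weighs in every level. Everything here starts from the larger table.

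edgeR 4.0.16 in R 4.3.3 kept 17455 genes by filterByExpr and fitted all 15 libraries with 1 mean per group (TMM scaling; robust glmQLFit; residual degrees of freedom 11). The threshold for a call was 0.05 on p-values adjusted by Benjamini-Hochberg over every tested gene. Standard errors come from the estimate and its F statistic. DESeq2 1.42.0 and limma 3.58.1 were alternatives, beside other scalings, no filter, a replicate block, other-cell markers as a covariate, subsets of libraries and each library left out. The scripts were tested on simulated counts with known changes. The simulated spread was lower than the common dispersion of these data, and the changed genes had more reads than Gm32014 and Gm16485. Recovery at the spread of these data or at such low counts was thus not tested. Pooled ratios have exact 95% Poisson intervals. Total counts were 24.4 to 139.4 M (median 49.9 M), and the common dispersion was 0.163, or 0.0482 with the other-cell covariate.

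Named genes are the 10 genes, the 5 tested neighbours with the smallest p in either genotype contrast, the 5 genes most like Pgr, and of each list the called genes or else the most abundant and the one with the smallest p. Casp12, Jrkl, Gm20416, Ddi1, Cntn4 and the genes without overlap in both sexes were named after their values were seen. The 10 genes and the lists were chosen with earlier results of these data known. Same-numbered libraries deviated together from their group means between the male label groups (correlations 0.169 to 0.699) and between the sexes under the KO label (0.503 to 0.829) and the WT label (0.179 to 0.842), and were taken as paired there from the data alone. Between the female label groups they were -0.41 to 0.708 and were not. The main fits and the free permutation tests take no account of the pairing. It enters only in the replicate block and in the exchange within same-numbered pairs.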

Additional observations from a re-analysis of the deposited data

Results flagged for a closer look

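In 30 combinations of one of the 10 genes with a group of 4 libraries, 3 had a library far from the others of its group, by a gap over the whole range above Dixon's critical value of 0.829. Chance flags about 1 in 20 such groups.

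Gm32014 stood at 0.551 CPM in replicate 4 of the female libraries labelled KO, against 0.147 to 0.182 CPM in the other 3. Cep126 stood at 11.8 CPM in replicate 1 of the male libraries labelled KO, against 15.98 to 16.8 CPM in the other 3. Pdgfd stood at 149 CPM in replicate 4 of the male libraries labelled WT, against 110 to 114 CPM in the other 3.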

How the results depend on the processing

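No member was called in females against males or in the sex difference under any alternative run. Pgr, Gm32014 and Gm16485 had too few reads under the WT label for this to decide about them there or in the sex difference. Pgr, Gm32014 and Gm16485 stayed higher, and Gm19324, Cep126 and Pdgfd lower, under the KO label in both sexes in every alternative. The number of genes called depends on the tool and on single libraries. For KO over WT in females (0 called) DESeq2 called 3, limma-voom 1 and the covariate fit 1. In males (2 called) RLE scaling called 0, DESeq2 4, the libraries with low other-cell markers alone 0, those without other-sex transcripts 0, and fits without 1 library 0 to 1. For females over males under the KO label (4 called) counts were 2 without a filter, 57 with DESeq2, 10 with limma-voom, 13 with the replicate block, 11 with the covariate, 1 with low-marker libraries, 7 without other-sex transcripts and 0 to 10 without 1 library. Under the WT label (0 called) they were 1, 14, 6, 1, 4, 1, 6 and 0 to 2 in the same order. DESeq2 called 1 gene for the sex difference. The cause of these changes was not tested.

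Small sex differences under the KO label turned round. In low-marker libraries the log2 values became -0.20 for Gm16485, 0.067 for Cep126, -0.11 for Pdgfd and 0.035 for Arhgap42. Without other-sex transcripts they became -0.18 for Pdgfd, -0.41 for Trpc6 and 0.063 for Yap1. Without 1 library they ran from -0.24 to 0.047 for Cep126, -0.18 to 0.35 for Pdgfd, -0.41 to 1.27 for Trpc6, -0.12 to 0.063 for Yap1 and -0.093 to 0.0083 for Arhgap42. The Pgr difference between females and males was 3.80 to 5.06 CPM under the KO label and -0.00577 to 0.128 CPM under the WT label without 1 library. On total counts, a scaling added after the data were seen, 199 genes had every male library labelled KO above every one labelled WT, against 132. Exchange within same-numbered pairs, also added, gave an exact p of 0.125 and 0.500 for Pgr. The replicate block, on the paired numbers, changed the counts of genes called between the sexes as given above, but no call of a member there. Depth limits Gm32014 and Gm16485 under the WT label, where single reads set the fold, and Pgr, where 7 of the 10 female and of the 13 male reads lie in replicate 2.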
